A study of Mus musculus with 28 samples.

Results

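Microglia, the macrophages that live in the brain parenchyma, make a set of surface receptors and secreted proteins at high level in undisturbed tissue, and the genes for these are called homeostatic. The 9 described are P2ry12, P2ry13, Gpr34, Adora3, Cx3cr1, Adgrg1 and Siglech, which encode receptors, Tmem119, which encodes a membrane protein, and Olfml3, which encodes a secreted one. They were chosen by symbol and not by a cutoff on a measured value, but with earlier results of these data known. All 9 had a row among the 14617 genes of the table, and all 9 were among the 12327 genes that passed the filter on low counts. The RNA of sorted cells was counted in 28 libraries by MARS-seq, which reads the 3′ end of polyadenylated RNA and counts unique molecular identifiers (UMIs). All recipients were Cx3cr1 gfp/+ mice, in which GFP takes the place of 1 copy of Cx3cr1, and all were lethally irradiated before the transplant. Their new marrow was hDNMT3A fl/fl (control) or Vav-Cre: hDNMT3A fl/fl (mutant), so both kinds carried hDNMT3A fl/fl, and Vav drives Cre in blood-forming cells and their descendants. After 16 weeks, GFP+ cells (host) and GFP- cells (donor) were sorted from the parenchyma, where the labels call both microglia, and from the leptomeninges, the inner membranes over the brain. For control and for mutant marrow there were 4 libraries of host microglia, 4 of donor microglia, 4 of donor leptomeningeal macrophages and 2 of host leptomeningeal macrophages. The labels used here give no age or sex, do not tie libraries to single mice and do not say how much of the donor marrow had recombined. The p-values therefore cover library-to-library spread, which may be technical.

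P2RY12 and P2RY13 are receptors for ADP that couple to inhibitory G proteins, and P2RY12 steers microglial processes toward damaged cells. The homeostatic program is known to depend on signals of the brain, TGF-beta among them, and on transcription factors such as PU.1 and SALL1, and microglia lose it in culture and in disease. Macrophages that settle in the irradiated brain from marrow are known to take it up only in part, and the macrophages of the brain's borders carry it at low level apart from CX3CR1.

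The members lie on 6 chromosomes of the mouse genome (mm10, gene spans of GENCODE M21). P2ry13 (chr3:59207892-59210882) and P2ry12 (chr3:59216272-59262871) are neighbours on the minus strand, 5390 bases apart. Adora3 (chr3:105870858-105908926) and Olfml3 (chr3:103722222-103738001) are on the same chromosome, on the plus and the minus strand. Siglech is at chr7:55768178-55778925, Adgrg1 at chr8:94974751-95014217 and Gpr34 at chrX:13632089-13640858, all on the plus strand. Tmem119 (chr5:113793729-113800516) and Cx3cr1 (chr9:119901616-120069879) are on the minus strand. RefSeq's table of promoter windows (GRCm38.p6, the assembly behind mm10) matched 7 of the 9 members, all but Gpr34 and Tmem119. The 250 bases before the start are printed for P2ry12 and P2ry13, neighbouring genes that fell together, and for the other 2 members that hold the searched core of the PU.1 motif, Siglech and Adora3. Each is written 5′ to 3′ on the gene's own strand, and capitals mark GGAAGT or its reverse complement ACTTCC, with the 2 bases before it where they complete GAGGAAGT. The P2ry12 window (chr3:59262986-59263235, minus strand), the P2ry13 window (chr3:59210883-59211132, minus strand), the Siglech window (chr7:55767934-55768183, plus strand) and the Adora3 window (chr3:105904171-105904420, plus strand) read:
P2ry12: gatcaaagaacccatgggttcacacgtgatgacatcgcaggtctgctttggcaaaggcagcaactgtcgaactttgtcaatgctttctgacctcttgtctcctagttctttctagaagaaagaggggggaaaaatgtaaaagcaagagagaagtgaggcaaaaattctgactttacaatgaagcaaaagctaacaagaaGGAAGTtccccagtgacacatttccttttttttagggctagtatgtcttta
P2ry13: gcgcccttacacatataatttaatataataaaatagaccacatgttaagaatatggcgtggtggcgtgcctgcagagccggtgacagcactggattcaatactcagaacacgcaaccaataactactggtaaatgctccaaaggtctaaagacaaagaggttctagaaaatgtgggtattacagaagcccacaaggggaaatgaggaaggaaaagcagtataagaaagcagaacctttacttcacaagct
Siglech: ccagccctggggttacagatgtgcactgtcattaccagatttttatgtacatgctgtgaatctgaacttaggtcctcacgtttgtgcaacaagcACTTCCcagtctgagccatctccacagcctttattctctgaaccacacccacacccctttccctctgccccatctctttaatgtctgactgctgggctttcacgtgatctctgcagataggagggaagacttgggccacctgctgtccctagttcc
Adora3: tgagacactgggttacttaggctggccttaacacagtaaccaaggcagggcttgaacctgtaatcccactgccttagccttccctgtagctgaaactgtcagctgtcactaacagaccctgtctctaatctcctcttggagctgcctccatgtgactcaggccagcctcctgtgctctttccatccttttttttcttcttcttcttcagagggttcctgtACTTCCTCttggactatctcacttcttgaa

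GGAAGT, searched on both strands, was in 19.7% of all 32851 such windows and in those of P2ry12, Siglech and Adora3. The longer GAGGAAGT, which contains it, was in 2.44% of windows and among the members in that of Adora3. TGAGTCA (AP-1) was in 4.46% of windows and in those of Adora3 and Adgrg1, and CAGACA (SMAD) in 17.1% and in those of Siglech and Adgrg1. TATAAA was in 12.4% of windows and in 0 of the 8 windows of the members, of which Adgrg1 has 2. A match is a description of the letters, and part of the P2ry12 window lies over an annotated exon of Med12l on the other strand.

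Libraries held 479077 to 3066506 UMIs, so that 3 UMIs, the most that a count of 0 leaves possible, amounted to 0.978 to 6.26 CPM, the unit of level used here, in which UMIs are scaled to a common library total. This bound covers counting error only. Markers of other cells differed between populations. The 15 border macrophage markers took 1.35% to 1.88% of UMIs in host leptomeningeal libraries, 0.395% to 0.701% in donor leptomeningeal ones, 0.227% to 0.332% in donor microglia and 0.0892% to 0.109% in host microglia. The 14 neutrophil markers took 3.66% to 9.78% in donor leptomeningeal libraries and 0.0591% to 1.05% in all others. The 15 astrocyte markers took 0.148% to 0.710% in donor microglia and 0.0158% to 0.0300% elsewhere, and the 12 neuron markers 0.0365% to 0.203% and 0.00173% to 0.0109%. In each of these 4 lists every marker had UMIs in every population. Mitochondrially encoded genes took 0.114% to 0.349% in host microglia and 1.10% to 4.72% elsewhere.

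The 9 genes together made up 1.44 ± 0.157% of UMIs in host microglia and 0.301 ± 0.0455% in donor microglia (SD, n = 8 each). They made up 0.380 ± 0.120% in host leptomeningeal cells (n = 4) and 0.119 ± 0.0215% in donor leptomeningeal cells (n = 8). Every member had its highest mean in host microglia and its lowest in donor leptomeningeal cells. Host leptomeningeal cells stood above donor microglia for 8 members, and Tmem119 had these in the other order. In donor against host microglia, 8 of the 8 members tested were lower by edgeR's quasi-likelihood test at an adjusted p under 0.05, where 27.3% of all genes were lower, 33.1% higher and 60.4% either. The median log2 fold change of the 9 was -2.24, against 0.04 over all genes. In bulk libraries, fewer cells that make a gene and less RNA of it per cell cannot be told apart. The levels of the 9 genes by library are plotted on a log axis.

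**Figure D1:**
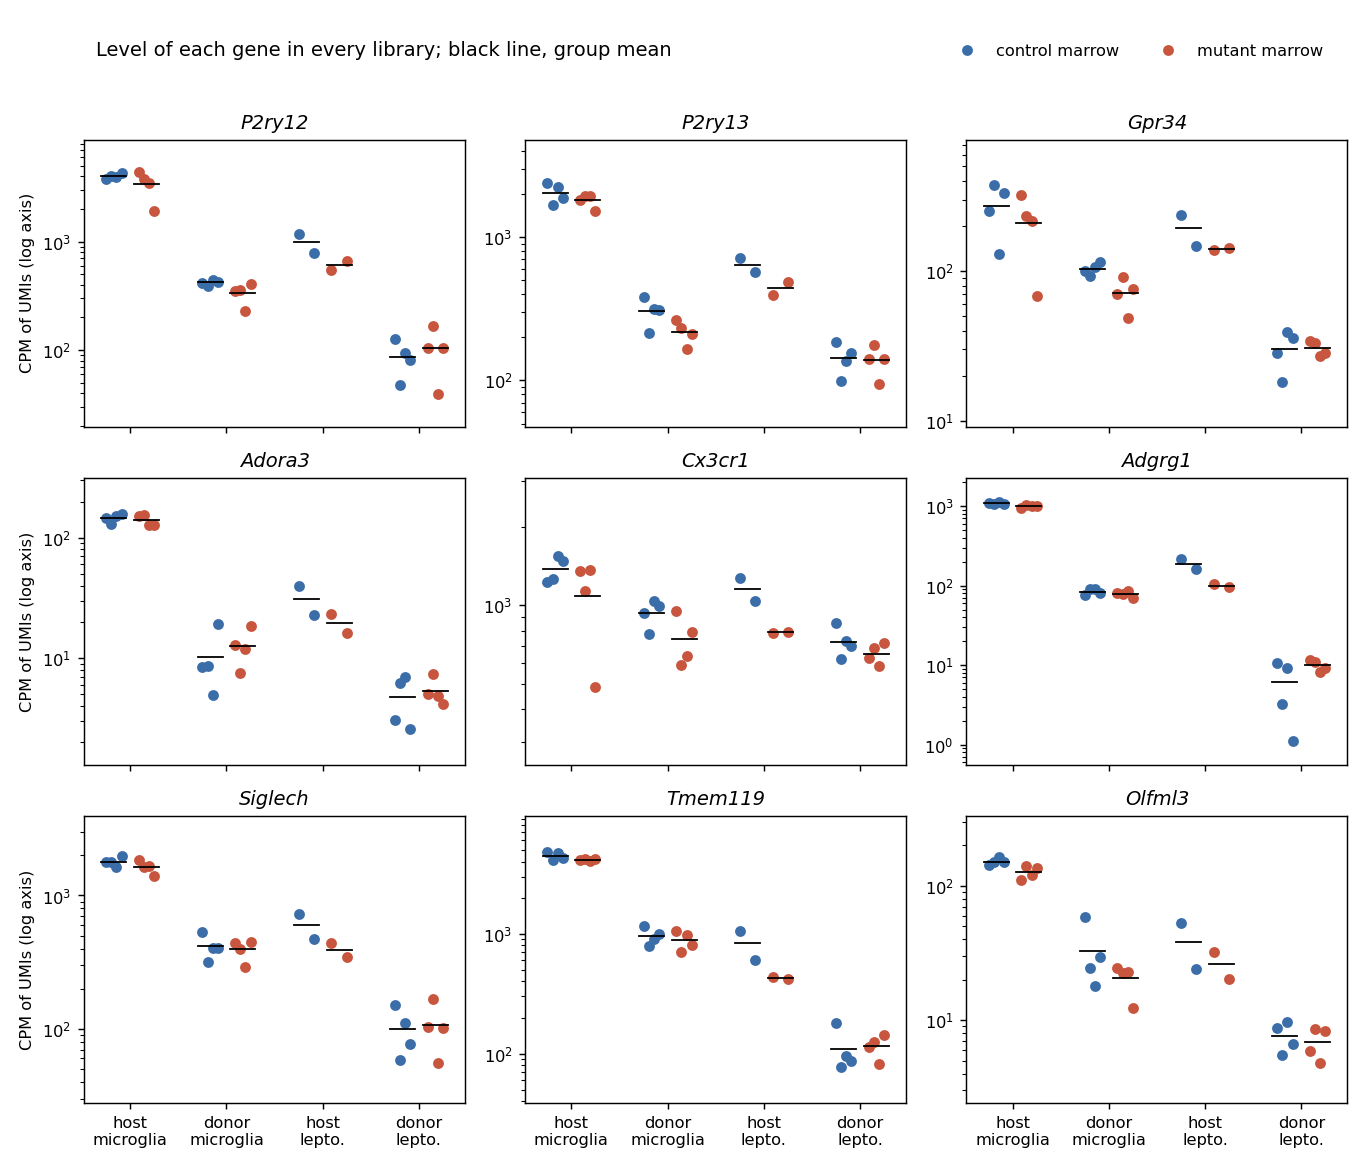
Levels in CPM (log axis) of each of the 9 genes in the 28 libraries, by population, with control marrow in blue, mutant marrow in red and a black line at each group mean. Host microglia stand highest for every gene, the libraries of Cx3cr1 overlap between all populations, and those of Adgrg1 fall from 949 CPM or more in host microglia to 11.4 or less in donor leptomeningeal cells.

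P2ry12, the ADP receptor best known as a microglial marker, ran from 1907 to 4360.1 CPM with a median of 3846 in the 8 host microglia libraries and from 230.5 to 444 CPM with a median of 399.5 in the 8 of donor microglia. Host leptomeningeal libraries had 1186 and 786 CPM with control and 548 and 658 with mutant marrow. The 8 donor leptomeningeal libraries ran from 39.4 to 165 CPM with a median of 99.2. No library of any population reached the range of the next population in this order. Donor microglia held 10.3% of the host microglial mean, and the fold was -3.11 ± 0.23 on the log2 scale (adjusted p = 1.06e-10). In the leptomeninges the donor against host fold was -2.80 ± 0.26 (adjusted p = 1.68e-08). P2ry13, the second ADP receptor, encoded next to P2ry12, ran from 1512 to 2401 CPM with a median of 1913 in host microglia and from 167 to 382 CPM with a median of 248 in donor microglia. It had 714 and 567 CPM and 398 and 489 CPM in control and mutant host leptomeningeal libraries, and ran from 95.2 to 185 CPM with a median of 141 in donor ones. Here donor microglia and donor leptomeningeal cells overlapped, while host cells of either compartment stood above both. The donor against host folds were -2.72 ± 0.14 in the parenchyma and -1.69 ± 0.15 in the leptomeninges (adjusted p = 6.84e-16 and 1.31e-09).

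Adora3 encodes the A3 adenosine receptor, which senses the product that remains when ADP is broken down further. Its host microglia libraries lay close together, from 127 to 157 CPM with a median of 148, and donor microglia ran from 4.92 to 19.1 CPM with a median of 10.3. In host leptomeningeal libraries it had 39.6 and 22.8 CPM with control and 23.1 and 16.3 with mutant marrow, and donor leptomeningeal ones ran from 2.58 to 7.35 CPM with a median of 4.92. Donor values are near the limit of counting, with as few as 3 UMIs in a donor microglia library, and donor microglia overlapped both leptomeningeal populations. Donor microglia held 8.0% of the host level, a fold of -3.51 ± 0.17 (adjusted p = 1.45e-22), and the leptomeningeal fold was -2.08 ± 0.23 (adjusted p = 5.80e-10). Gpr34 encodes a receptor for lysophosphatidylserine, a signalling lipid. It ran from 68.4 to 378 CPM with a median of 241 in host microglia, with a coefficient of variation of 43.5%, the widest of the 9 there. Donor microglia ran from 48.7 to 114 CPM with a median of 91.6 and overlapped 1 host library, mutant library 4. Host leptomeningeal libraries had 237 and 148 CPM with control and 138 and 143 with mutant marrow, within the range of host microglia, and donor leptomeningeal ones ran from 18.3 to 38.9 CPM with a median of 30.7. The folds of donor against host cells were -1.31 ± 0.26 and -2.21 ± 0.31 in parenchyma and leptomeninges (adjusted p = 0.000201 and 7.62e-06).

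Cx3cr1 encodes the receptor for fractalkine, a chemokine that neurons display. Host cells were sorted by GFP made from this locus and keep 1 intact copy, so its donor against host values are a description with no test. It ran from 488 to 1544 CPM with a median of 1307 in host and from 591 to 1038 CPM with a median of 861 in donor microglia. In host leptomeningeal libraries it had 1270.2 and 1045 CPM with control and 785 and 792 with mutant marrow, and donor ones ran from 585 to 857 CPM with a median of 691. All 4 populations overlapped, and the means of the other 3 were 68.0%, 79.0% and 55.9% of that of host microglia for donor microglia, host and donor leptomeningeal cells. Donor minus host was -0.37 ± 0.14 in the parenchyma and -0.24 ± 0.17 in the leptomeninges on the TMM scale, against -0.56 and -0.50 as plain log2 ratios of mean CPM.

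Adgrg1 (GPR56) is an adhesion receptor that binds collagen III and transglutaminase 2, and among brain macrophages it is known as a gene of microglia of embryonic origin. Host microglia ran from 949 to 1131 CPM with a median of 1048 and donor microglia from 69.8 to 91.9 CPM with a median of 79.8, both narrow. Host leptomeningeal libraries had 215 and 163 CPM with control and 105 and 94.9 with mutant marrow. Donor leptomeningeal libraries ran from 1.11 to 11.4 CPM with a median of 9.16, with as few as 3 UMIs in a library. The 4 populations did not overlap. Donor microglia held 7.77% of the host level (fold -3.50 ± 0.13, adjusted p = 4.87e-21), and the fold in the leptomeninges was -3.95 ± 0.18 (adjusted p = 1.23e-17). Siglech encodes a sialic acid-binding lectin that signals through the adaptor TYROBP and also marks plasmacytoid dendritic cells. It ran from 1396 to 1961 CPM with a median of 1725 in host and from 292 to 536 CPM with a median of 405 in donor microglia. In host leptomeningeal libraries it had 723 and 469 CPM with control and 442 and 343 with mutant marrow, which overlapped donor microglia, and donor leptomeningeal ones ran from 55.3 to 167 CPM with a median of 103. Its folds were -1.90 ± 0.19 in the parenchyma and -2.01 ± 0.22 in the leptomeninges (adjusted p = 1.52e-08 and 2.81e-07). The part of plasmacytoid dendritic cells in its level was not tested. Of the plasmacytoid dendritic cell markers, Ccr9 and Spib were at 0 UMIs in all 8 donor microglia libraries. They averaged 0.125 ± 0.246 and 0.153 ± 0.432 CPM in host microglia, below the level of 3 UMIs, so these zeros cannot tell donor from host microglia. Spib averaged 5.02 ± 2.85 and Ly6d 5.53 ± 2.09 CPM in donor leptomeningeal libraries, where Siglech was lowest. The list as a whole was highest in donor microglia. Without Siglech, 10 such markers in the table took 0.260% to 0.358% of UMIs in donor microglia, 0.134% to 0.160% in host microglia, 0.127% to 0.162% in host and 0.0656% to 0.106% in donor leptomeningeal cells.

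Tmem119 encodes a transmembrane protein of little known function that is widely used to tell microglia from other brain macrophages. Host microglia ran from 4027 to 4768 CPM with a median of 4225 and donor microglia from 699.8 to 1169 CPM with a median of 934. Host leptomeningeal libraries had 1056 and 609 CPM with control and 439.7 and 418 with mutant marrow, and donor ones ran from 77.0 to 181 CPM with a median of 104. Donor microglia and host leptomeningeal cells overlapped, and the other populations stood apart. Donor microglia held 21.4% of the host level, and the folds of donor against host cells were -2.05 ± 0.15 in the parenchyma and -2.17 ± 0.18 in the leptomeninges (adjusted p = 2.81e-11 and 1.11e-09). Olfml3, a secreted glycoprotein of the olfactomedin family, ran from 110.5 to 165 CPM with a median of 142 in host microglia and from 12.3 to 58.4 CPM with a median of 23.7 in donor microglia. In host leptomeningeal libraries it had 53.1 and 23.9 CPM with control and 32.1 and 20.3 with mutant marrow, and donor ones ran from 4.81 to 9.73 CPM with a median of 7.50. Control donor microglia library 1, the highest donor value, lay above all host leptomeningeal libraries, and host microglia above every other library. Folds were -2.24 ± 0.16 and -1.90 ± 0.23 (adjusted p = 9.72e-16 and 1.07e-08).

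In the parenchyma the libraries of donor and host cells did not overlap for 7 of the 9 members, against 28.6% of all genes. In the leptomeninges 8 of the 8 members tested were lower in donor cells, where 13.3% of all genes were lower, and libraries did not overlap for 8 of 9, against 23.5%. The donor and host libraries also differed in the marker levels given above. With the astrocyte and neuron markers as a covariate, calls over all genes in the parenchyma fell from 7448 to 683. Of the 8 members 1, Adgrg1, kept its call. The folds of the other 7 stayed between -3.38 for P2ry12 and -1.15 for Gpr34, with SEs of 0.711 for P2ry13 to 1.62 for Gpr34. The covariate was the mean log2 CPM of these markers, whose shares of UMIs did not overlap between host and donor microglia. Gpr34 also lost its call there with the neutrophil markers as a covariate (-0.63 ± 0.43, adjusted p = 0.243), and Tmem119 with the mitochondrial share (-1.45 ± 0.53, adjusted p = 0.0782). That share did not overlap either, at 0.114% to 0.349% in host and 1.58% to 4.72% in donor microglia. With the neutrophil markers as a covariate, calls over all genes in the leptomeninges fell from 3718 to 431. Of the 8 members 5 kept the call there, and P2ry12 (-1.81 ± 0.53, adjusted p = 0.0716), Siglech (-1.08 ± 0.44, adjusted p = 0.228) and Gpr34 (-0.99 ± 0.69, adjusted p = 0.575) lost it. Neutrophil markers took 0.202% to 0.600% of UMIs in host and 3.66% to 9.78% in donor leptomeningeal libraries. With no overlap of these shares, this fit, on the mean log2 CPM of the markers, cannot separate them from origin.

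**Figure D2:**
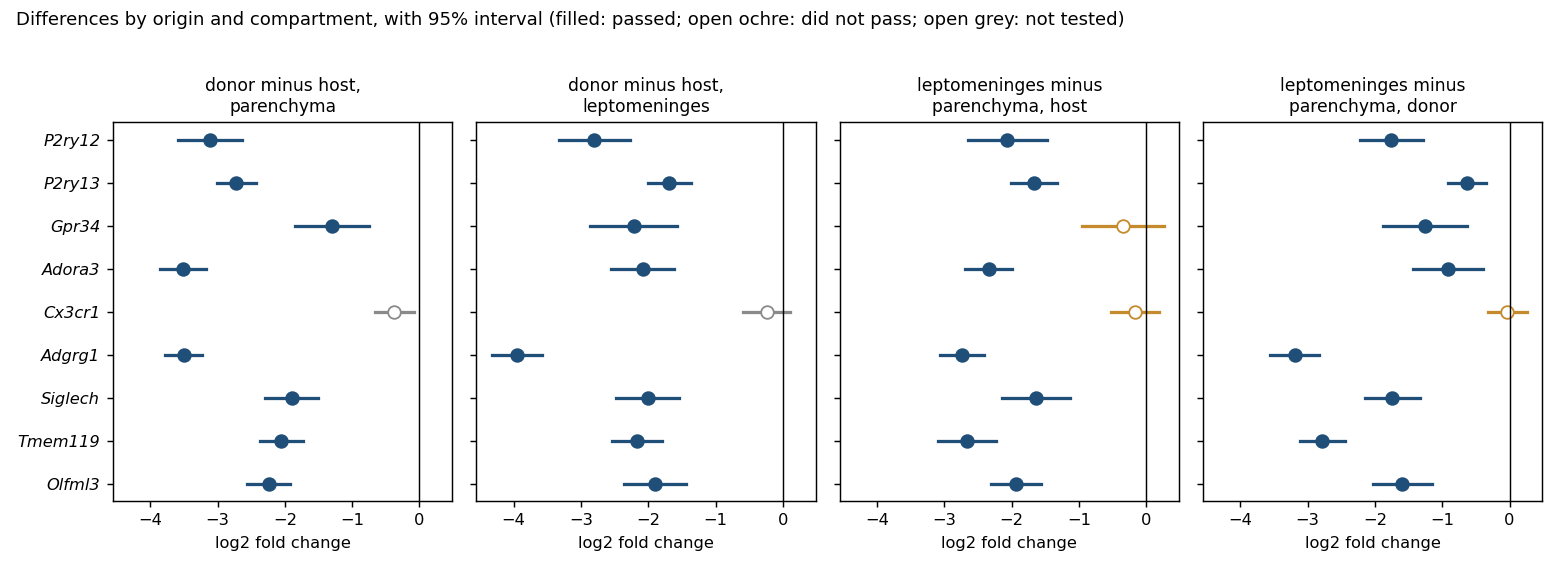
Log2 fold change of each gene with its 95% interval in 4 comparisons averaged over marrow genotypes. Filled points passed at an adjusted p under 0.05, open ochre points did not, and grey points for Cx3cr1 were not tested; Adgrg1 is at -3.50 and -3.95 in the donor against host panels, and Cx3cr1 lies between -0.37 and -0.03 in all 4.

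Between compartments, cells of the same origin were compared. In host cells, 7 of 9 members were lower in the leptomeninges than in the parenchyma, where 25.7% of all genes were lower and 31.1% higher. The folds were -2.74 ± 0.16 for Adgrg1, -2.67 ± 0.21 for Tmem119, -2.34 ± 0.17 for Adora3 and -2.06 ± 0.28 for P2ry12 (adjusted p = 5.34e-16, 7.36e-11, 4.05e-16 and 2.16e-06). Olfml3, P2ry13 and Siglech were at -1.93 ± 0.18, -1.67 ± 0.17 and -1.64 ± 0.24 and passed too. Libraries of the 2 compartments did not overlap for 7 of the 9, against 42.4% of all genes. Gpr34 (-0.35 ± 0.29, adjusted p = 0.326) and Cx3cr1 (-0.17 ± 0.17, adjusted p = 0.436) did not pass, with 95% intervals of -0.96 to 0.26 and -0.52 to 0.19. Host cells of both compartments were sorted by GFP from the Cx3cr1 locus, so the gate limits this comparison of Cx3cr1. Without mutant host microglia library 4, Cx3cr1 passed at -0.28 ± 0.11 (adjusted p = 0.0297). With the mitochondrial share as a covariate Gpr34 passed at -2.54 ± 0.56 (adjusted p = 0.00222). That share was 0.114% to 0.349% in host microglia and 1.57% to 1.93% in host leptomeningeal libraries. With no overlap, this fit cannot separate the share from the compartment, and its Gpr34 fold is an extrapolation. The levels of border macrophage markers ran the other way. Pf4 averaged 3249 ± 326 CPM in host leptomeningeal cells and 25.4 ± 6.57 in host microglia, and Lyve1 760.0 ± 208 and 2.79 ± 1.76 CPM (SD, n = 4 and 8).

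In donor cells, 8 of 9 members were lower in the leptomeninges, where 31.6% of all genes were lower. The folds were -3.19 ± 0.18 for Adgrg1 and -2.79 ± 0.16 for Tmem119 (adjusted p = 1.4e-16 and 2.75e-13), and both kept the call under every alternative fit run. P2ry12, Siglech, Olfml3 and Gpr34 were at -1.75 ± 0.23, -1.74 ± 0.20, -1.59 ± 0.22 and -1.26 ± 0.30, and Adora3 and P2ry13 at -0.91 ± 0.26 and -0.63 ± 0.14, and all 6 passed. Libraries did not overlap for 6 of the 9, against 25.6% of all genes. Cx3cr1 was at -0.03 ± 0.14 (adjusted p = 0.858, 95% interval -0.32 to 0.26). With the neutrophil markers, or the astrocyte and neuron markers, as a covariate, 2 of 9 members passed. Calls over all genes fell in both fits, from 7650 to 810 with the astrocyte and neuron markers. The shares of UMIs of each of these marker lists did not overlap between the donor compartments, so these fits cannot separate the markers from compartment. With the astrocyte and neuron covariate the SEs of the 6 that lost the call were 0.557 to 1.27, and their folds remained between -2.31 for Siglech and -1.28 for Adora3. With the neutrophil covariate the folds were -1.31 for Olfml3, -1.11 for Adora3, -0.74 for Siglech, -0.68 for P2ry12 and -0.29 for P2ry13. Gpr34 turned to 0.06 ± 0.74 with the neutrophil covariate (adjusted p = 0.974), and it also lost the call with the mitochondrial share as a covariate (-0.39 ± 0.30, adjusted p = 0.306).

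Donor microglia and host leptomeningeal cells are neighbours in the order of levels, and they share libraries with the comparisons above. Tmem119 was higher in donor microglia by 0.61 ± 0.19 (adjusted p = 0.00975), where 24.2% of all genes were higher. The library ranges overlapped, and the call was lost without control host leptomeningeal library 2 (0.44 ± 0.20, adjusted p = 0.0796) or mutant host leptomeningeal library 2 (0.55 ± 0.23, adjusted p = 0.0595). Lower in donor microglia were 5 members, against 21.6% of all genes. These were Adora3 (-1.17 ± 0.25), P2ry13 (-1.05 ± 0.16), P2ry12 (-1.05 ± 0.26), Gpr34 (-0.96 ± 0.32) and Adgrg1 (-0.76 ± 0.16), with adjusted p-values of 0.000124, 3.88e-06, 0.00205, 0.0182 and 0.000256. Libraries did not overlap for 4 of the 9 members, against 21.9% of all genes. Gpr34 lost its call without control host leptomeningeal library 1 (-0.79 ± 0.38, adjusted p = 0.107). Olfml3 (-0.31 ± 0.22) and Siglech (-0.27 ± 0.23) did not pass, with 95% intervals of -0.76 to 0.15 and -0.74 to 0.21, and Cx3cr1 was at -0.21 ± 0.17 with no test. With the astrocyte and neuron covariate, 0 of 8 members passed, with larger SEs, and calls over all genes fell from 5650 to 815. The shares of UMIs of these markers did not overlap between these populations. The folds were then -1.23 ± 0.82 for P2ry12, -1.06 ± 0.55 for Adgrg1, -0.85 ± 1.11 for Gpr34, -0.85 ± 0.94 for Adora3, -0.31 ± 0.49 for P2ry13 and 0.67 ± 0.58 for Tmem119.

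Whether the donor against host fold depended on the compartment was tested as its value in the leptomeninges minus that in the parenchyma (the origin effect). It passed for 2 of 8 members, both toward a smaller difference in the leptomeninges, where 19.1% of all genes were higher in this sense and 23.2% lower. Adora3 had a difference of 1.43 ± 0.31 (adjusted p = 0.000183), from -3.51 ± 0.17 in the parenchyma to -2.08 ± 0.23 in the leptomeninges. P2ry13 had one of 1.04 ± 0.21 (adjusted p = 0.000244), from -2.72 ± 0.14 to -1.69 ± 0.15, while its neighbour P2ry12 was at 0.31 ± 0.34 (adjusted p = 0.516). Gpr34 (-0.91 ± 0.41, adjusted p = 0.0844) and Adgrg1 (-0.45 ± 0.23, adjusted p = 0.121) had estimates of the opposite sign and did not pass. Olfml3, Siglech and Tmem119 had 0.34 ± 0.29, -0.11 ± 0.30 and -0.12 ± 0.24. With the astrocyte and neuron markers as a covariate, Adora3 was at 0.90 ± 1.56 and P2ry13 at -0.20 ± 0.80, and neither passed (adjusted p = 0.904 and 0.983). DESeq2's Wald test called Adgrg1 (-0.56 ± 0.18, adjusted p = 0.00742) and Gpr34 (-0.98 ± 0.39, adjusted p = 0.0316) as well.

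Mutant against control marrow was compared in the donor cells that come from it and in the host cells of the same kind of recipient. By edgeR's quasi-likelihood test 0 of 9 members passed in each of the 4 populations. Over all genes 0.0892% passed in donor microglia, 0.0649% in host microglia, 0.0487% in donor leptomeningeal cells and 0.0% in host leptomeningeal cells. At an unadjusted p under 0.05 there were 1, 0, 1 and 3 members of 9, and 10.2%, 3.76%, 4.84% and 5.40% of all genes. Median folds of the 9 were -0.31, -0.15, 0.10 and -0.60 in that order, and medians over all genes were 0.00, 0.02, -0.03 and 0.02.

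**Figure D3:**
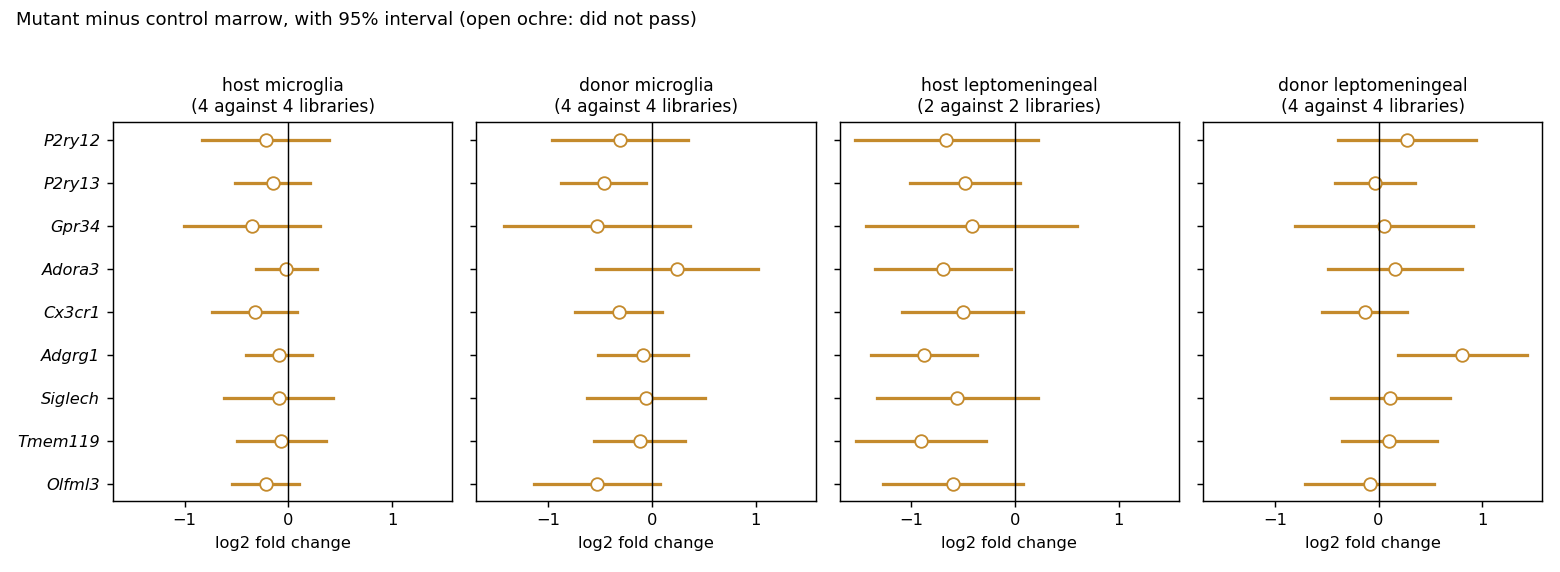
Log2 fold change of mutant against control marrow for each gene in the 4 populations, with 95% intervals. No point passed. All 9 points lie below 0 in host leptomeningeal cells and in host microglia. Those of host leptomeningeal cells lie between -0.91 for Tmem119 and -0.42 for Gpr34, with the intervals of Adgrg1, Adora3 and Tmem119 below 0.

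In host leptomeningeal cells, with 2 libraries a side, all 9 folds were below 0, against 47.6% of all genes. So were 9 of 9 in host microglia and 8 of 9 in donor microglia (all genes 45.6% and 49.6%), and 3 of 9 in donor leptomeningeal cells (55.0%). The folds of the members come from the same libraries, so their signs are not independent. Adgrg1 had 215 and 163 CPM with control and 105 and 94.9 with mutant marrow, a fold of -0.88 ± 0.25 (unadjusted p = 0.00147, adjusted p = 0.372). Tmem119 was at -0.91 ± 0.30 (adjusted p = 0.623), Adora3 at -0.69 ± 0.33 (adjusted p = 0.884) and P2ry12 at -0.66 ± 0.42 (adjusted p = 0.956). Both mutant libraries lay below both control libraries for 7 members, all but Adora3 and Olfml3, against 33.9% of all genes whose libraries separate. Adgrg1 passed with DESeq2 (-0.90 ± 0.17, adjusted p = 0.000856) and in a fit of these 4 libraries by themselves (-0.92 ± 0.18, adjusted p = 0.00916), and Tmem119 in that last fit (-0.94 ± 0.19, adjusted p = 0.0316). Leaving out 1 library at a time gave 0 calls in each of 4 fits. The 15 border macrophage markers took 1.35% and 1.6% of UMIs in the control libraries and 1.68% and 1.88% in the mutant ones. The 9 meningeal fibroblast markers in the table took 0.352% and 0.402% against 0.439% and 0.534%, and the 7 B cell markers 0.249% in 1 mutant library and 0.0538% to 0.0574% in the other 3. The part of these cells in the differences was not tested. The genotype effect in host leptomeningeal minus host parenchymal cells passed for 0 of 9 members (0.0% of all genes), with Tmem119 at -0.84 ± 0.36 and Adgrg1 at -0.79 ± 0.30 (adjusted p = 0.94 and 0.902). DESeq2 called Adgrg1 there (-0.81 ± 0.20, adjusted p = 0.0220).

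In donor leptomeningeal cells Adgrg1 went the other way, at 10.6, 3.26, 9.26 and 1.11 CPM with control and 11.4, 11, 8.17 and 9.06 with mutant marrow. The libraries overlapped, and the fold was 0.81 ± 0.31 (unadjusted p = 0.0129, adjusted p = 1). The other 8 members had folds between -0.13 for Cx3cr1 and 0.27 for P2ry12. In donor microglia P2ry13 had 382, 214, 317 and 312 CPM with control and 264, 231, 167 and 209 with mutant marrow, a fold of -0.47 ± 0.20 (unadjusted p = 0.0264, adjusted p = 0.425). Gpr34 had 100.2, 92.4, 107 and 114 and 70.0, 90.7, 48.7 and 75.9 CPM, which did not overlap (-0.53 ± 0.43, adjusted p = 0.714), where 3.53% of all genes separated. P2ry12, Cx3cr1 and Olfml3 were at -0.31 ± 0.31, -0.32 ± 0.20 and -0.53 ± 0.30, and Siglech, Tmem119, Adgrg1 and Adora3 at -0.06 ± 0.27, -0.12 ± 0.21, -0.09 ± 0.21 and 0.24 ± 0.39. Astrocyte markers took 0.148%, 0.710%, 0.177% and 0.243% of UMIs in control donor microglia libraries 1 to 4 and 0.389% to 0.681% in mutant ones, and with them and the neuron markers as a covariate 0 of 9 members passed. The differences of the genotype effect between donor and host microglia (0.0324% of all genes passed) and between donor leptomeningeal and donor parenchymal cells (0.0%) passed for 0 of 9 members each.

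Among host microglia, mutant library 4 stood below the other 7 for P2ry12, P2ry13, Gpr34, Cx3cr1 and Siglech and not for the other 4 members. P2ry12 had 4360.1, 3779, 3474 and 1907 CPM in mutant libraries 1 to 4 and 3745, 4038, 3913 and 4304 in control ones. Cx3cr1 had 1354, 1132, 1362 and 488 and 1234, 1259.9, 1544 and 1485 CPM, and Gpr34 323, 232, 217 and 68.4 and 251, 378, 129 and 334 CPM. P2ry13 was at 1512 CPM in that library, with 1667 the next lowest, and Siglech at 1396, with 1623 the next lowest. Tmem119, by contrast, had 4157, 4231, 4027 and 4219 CPM in the mutant libraries, and Adgrg1 949, 1037, 997 and 1016. Adgrg1 had 1099, 1058, 1131 and 1069 CPM in the control ones. Mutant against control folds in host microglia were -0.33 ± 0.20 for Cx3cr1, -0.35 ± 0.32 for Gpr34 and -0.22 ± 0.29 for P2ry12, and -0.10, -0.08 and -0.04 without that library. The other 6 members were between -0.22 (Olfml3) and -0.02 (Adora3) with it. For Adgrg1 and Olfml3 every mutant library lay below every control library, with Olfml3 at 110.5 to 141 against 143 to 165 CPM. The share of all genes that separate in this comparison is not given here. Mitochondrially encoded genes took 0.114% of UMIs in mutant library 4 and in control library 3, the lowest shares, and up to 0.349% in control library 2.

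**Figure D4:**
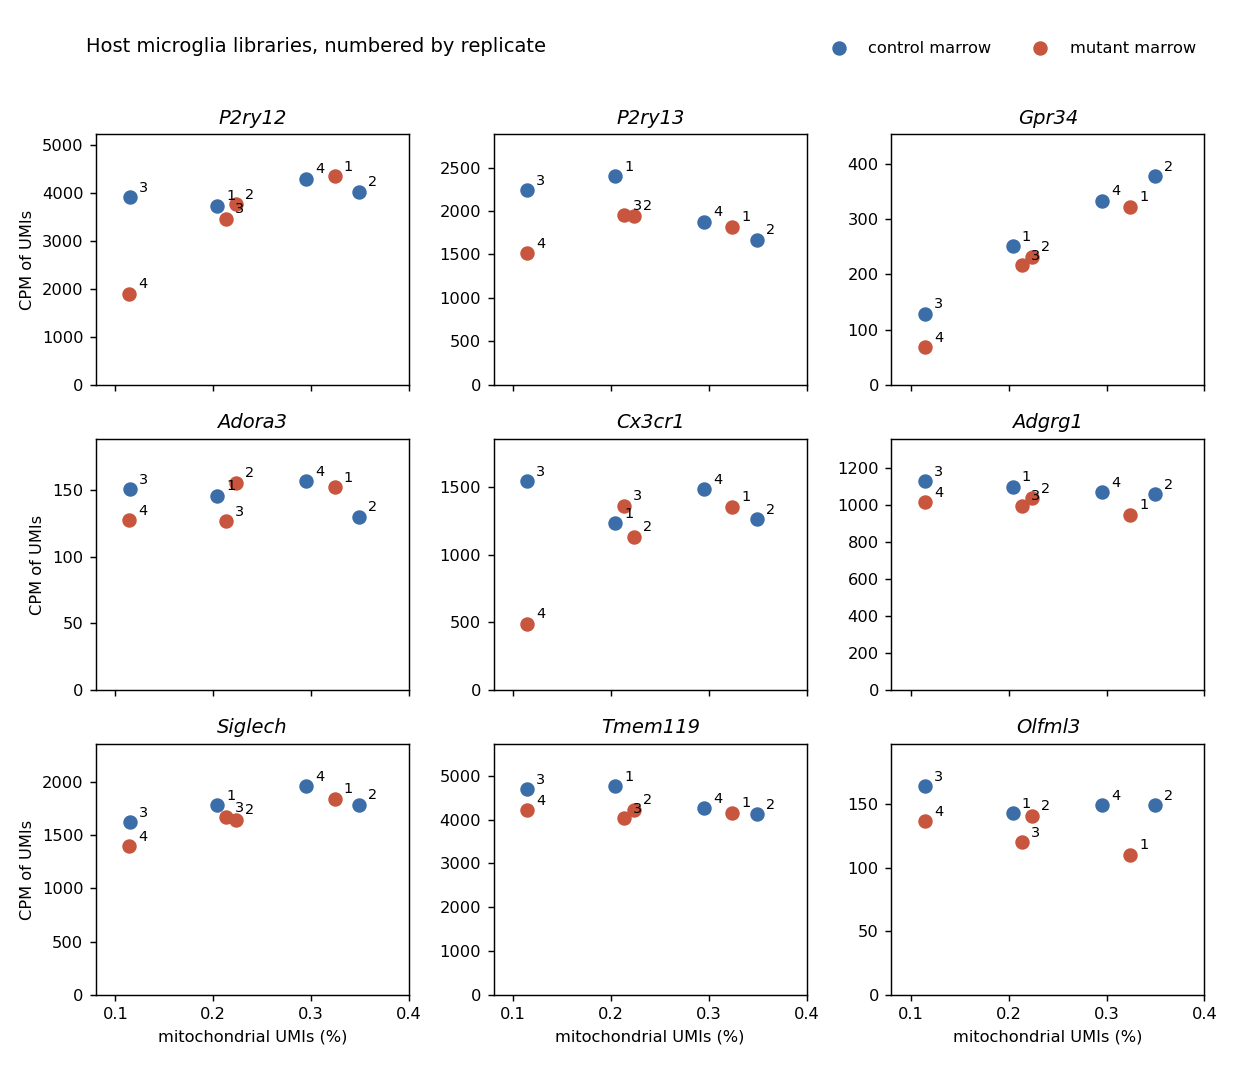
Level of each gene in CPM (from 0) against the share of UMIs from mitochondrially encoded genes in the 8 host microglia libraries, numbered by replicate, with control marrow in blue and mutant marrow in red. Gpr34 runs from 68.4 CPM at the lowest share to 378 at the highest, while Tmem119 stays between 4027 and 4768.

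Over these 8 libraries Gpr34 and the mitochondrial share had a Pearson r of 0.906 (exact permutation p = 0.000496) and a Spearman rho of 0.905 (exact permutation p = 0.00456), and r was 0.905 without the 2 libraries farthest from the median share. Adjusted over the 9 members, p was 0.00446 and 0.0411, and the relation was looked for after the Gpr34 values were seen. The other 8 members did not pass, with Siglech at an r of 0.787 and P2ry12 at 0.644 (adjusted p = 0.0780 and 0.108, exact permutation) and Tmem119 at -0.479. Each genotype has 4 of these libraries, too few for a value of its own. Gpr34 and P2ry12 also have the most AT-rich transcripts of the 9, with 37.1% and 38.6% GC in their principal coding transcript of GENCODE M21. Of the tested genes, 0.663% and 1.64% have a lower GC content, and the median is 50.8% (11309 of 12327 have a value). P2ry13, with an r of -0.215, comes next at 44.7% GC, ahead of Siglech, with the second highest r, at 46.4%. Tmem119 and Adgrg1 have 59.1% and 56.3% over the whole transcript. Over its last 500 bases, at the end that MARS-seq reads, Siglech comes before P2ry13. There Gpr34, P2ry12, Siglech and P2ry13 have 28.8%, 30.2%, 38.2% and 42.2% GC, and Tmem119 and Adgrg1 53.6% and 49.8%. What links these measures was not tested.

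The wider homeostatic list, 41 genes besides the members and also chosen with earlier results of these data known, went the same way. In donor against host microglia 39 of 41 were lower and 0 higher (median log2 fold -1.47), where 27.3% of all genes were lower. In the leptomeninges 34 were lower and 0 higher (median -0.87), where 13.3% of all genes were lower. Selplg, which encodes a ligand of selectins, averaged 8872 ± 565 CPM in host microglia, 944 ± 155 in donor microglia, 1482 ± 555 in host and 588 ± 23.2 in donor leptomeningeal cells. Crybb1, a crystallin gene, averaged 589 ± 55.8, 94.5 ± 20.6, 317 ± 106 and 26.8 ± 6.68 CPM in that order, and Itgam, which encodes CD11b, 1010.0 ± 106, 228 ± 40.9, 364 ± 56.6 and 308 ± 31.9. Sall1, which encodes a transcription factor of microglial identity, averaged 335 ± 23.1 CPM in host microglia, 17.1 ± 8.16 in donor microglia, 27.6 ± 16.9 in host and 2.61 ± 1.82 in donor leptomeningeal cells. Tyrobp, the adaptor through which Siglec-H signals, averaged 4164 ± 177, 3836 ± 749, 3137 ± 353 and 2869 ± 278 CPM in that order. Sall1 and Tyrobp were named for their roles, after their values were seen. Of the compartment differences, 34 of 41 were lower and 3 higher in host cells (all genes 25.7% and 31.1%), and 30 lower and 6 higher in donor cells (all genes 31.6% and 30.5%). Mutant against control passed for 0 of 41 in each population, where 0.0% to 0.0892% of all genes passed. Medians were between -0.23 in host leptomeningeal and 0.10 in donor leptomeningeal cells. At an unadjusted p under 0.05 (edgeR) there were 5, 1, 2 and 12 of 41 in donor microglia, host microglia, donor and host leptomeningeal cells. The shares of all genes were 10.2%, 3.76%, 4.84% and 5.40%. These genes share their libraries, so the counts are not of independent tests.

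Other receptors of nucleotides and adenosine went both ways. Of 12 tested in donor against host microglia, 7 were higher and 5 lower (median 1.44, against 0.04 over all genes, of which 33.1% were higher and 27.3% lower). The same shares of all genes apply to the other counts of higher and lower genes in donor microglia for the families that follow. P2rx4, an ATP-gated channel, averaged 176 ± 23.1 CPM in donor and 114 ± 16.1 in host microglia and rose by 0.81 ± 0.09 (adjusted p = 7.65e-11). P2rx7, another such channel, fell by 0.68 ± 0.10, and P2rx1 fell by 1.88 ± 0.29 (adjusted p = 4.70e-08 and 8.96e-07). Adora1, the A1 adenosine receptor, which neurons and astrocytes also make, rose by 4.13 ± 0.37 (adjusted p = 6.06e-11), from 2.25 ± 0.925 to 37.1 ± 27.5 CPM, in the libraries with the higher astrocyte and neuron markers. In host leptomeningeal against host parenchymal cells 7 of 12 were higher and 4 lower (all genes 31.1% and 25.7%), among them P2ry10, a lymphocyte gene (5.08 ± 0.45), and P2rx4 (0.96 ± 0.10).

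Enzymes that break extracellular nucleotides down were split. Of 16 tested genes of nucleotide and adenosine handling, 6 were higher and 6 lower in donor microglia (median -0.02). Entpd1 (CD39), which turns ATP and ADP into AMP at the cell surface, averaged 559 ± 27.1 CPM in host microglia, 168 ± 28.8 in donor microglia, 226 ± 43.4 in host and 105 ± 13.4 in donor leptomeningeal cells. It fell by 1.56 ± 0.09 in donor against host microglia and fell by 0.87 ± 0.11 in the leptomeninges (adjusted p = 1.36e-19 and 7.04e-09). Pnp, which breaks down inosine and guanosine, fell by 1.40 ± 0.09 in the parenchyma. Enpp2 (autotaxin) averaged 2.75 ± 1.69 CPM in host and 1123 ± 372 in donor microglia (8.82 ± 0.48), and Entpd2 0.143 ± 0.268 and 8.08 ± 5.69, the first below the level of 3 UMIs. The 9 oligodendrocyte markers in the table took 0.0732% to 0.452% of UMIs in donor and 0.0152% to 0.0194% in host microglia. Astrocyte and neuron markers were also higher in donor microglia, and the part of other cells in the Enpp2 fold was not tested.

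Of 9 tested Siglecs and adaptors, 2 were higher and 5 lower in donor microglia (median -0.29). Siglecf fell by 3.88 ± 0.28 and Cd33 fell by 0.61 ± 0.08 (adjusted p = 2.35e-16 and 4.51e-09), as Siglech did. Cd22 rose by 2.00 ± 0.19 and Siglec1, the sialoadhesin of border macrophages, by 3.04 ± 0.41 (adjusted p = 6.03e-13 and 4.33e-07). In host cells Siglec1 averaged 104 ± 31.2 CPM in the leptomeninges and 2.34 ± 1.87 in the parenchyma (5.62 ± 0.32). Of 11 tested adhesion receptors besides Adgrg1, 9 were higher and 2 lower in donor microglia (median 3.07, all genes 33.1% and 27.3%). Adgre1, which encodes the macrophage antigen F4/80, averaged 428 ± 69.0 CPM in donor and 292 ± 25.8 in host microglia and rose by 0.72 ± 0.09, and Adgre5 (CD97) rose by 3.31 ± 0.22. Adgrb1 and Adgrb2, which are also made by neurons and astrocytes, averaged 31.4 ± 18.1 and 22.7 ± 12.6 CPM in donor microglia and 0.468 ± 0.413 and 0.172 ± 0.336 in host microglia, below the level of 3 UMIs. Adgre4, Adgrg3, Adgrg5 and Celsr2 were below it there too, at 0.350 to 0.810 CPM. These genes passed the filter through other groups, so the count and the median are not a result about the family.

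Of 10 tested chemokine receptors besides Cx3cr1, 8 were higher and 2 lower in donor microglia (median 2.10, all genes 33.1% and 27.3%). Ccr7 and Cxcr2 averaged 0.380 and 0.593 CPM in host microglia, below the level of 3 UMIs, and passed the filter through other groups. Cxcr6, at 1.10 CPM, was near that level. Cxcr4, which holds blood cells in the marrow, averaged 2.99 ± 2.36 CPM in host and 90.0 ± 30.1 in donor microglia (5.39 ± 0.20), and Ccr1 9.01 ± 2.33 and 92.3 ± 20.3 (3.47 ± 0.14). Cmklr1, a receptor for chemerin, fell by 1.59 ± 0.11. In host microglia of mutant against control chimeras Cxcr4 was the 1 receptor of 10 that passed (2.15 ± 0.46, adjusted p = 0.0464). The count of all genes that passed there fell from 8 to 0 without any 1 of 5 of the 8 libraries. Of 5 tested ligands of the member receptors and enzymes that make or release them, 1 was higher and 4 lower in donor microglia (median -0.46). Tgm2, a ligand of GPR56, fell by 0.95 ± 0.12 in donor microglia and fell by 3.12 ± 0.19 in host leptomeningeal against host parenchymal cells. Cx3cl1, the ligand of CX3CR1 that neurons make, averaged 11.6 ± 4.84 CPM in donor microglia, where neuron markers were higher, and 0.311 ± 0.264 in host microglia, below the level of 3 UMIs. Of 4 tested olfactomedin genes, 2 were higher and 1 lower in donor microglia (median 1.21), with Olfml2b falling by 1.55 ± 0.22. Olfm2 averaged 0.768 CPM in host microglia, below the level of 3 UMIs.

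The genes most like the 9 were ranked by the Pearson correlation over the 28 libraries between a gene's log2 CPM and the mean z-score of the members, among 8458 genes with a mean of at least 10 CPM. The libraries fall into populations, so this is a description of which genes share the order of levels. Among the 10 highest were Mertk (0.989), a receptor for the uptake of dying cells, Plxdc2, Nav3, Cttnbp2nl, Slc2a5, a fructose carrier, Ecscr, St3gal6, a sialyltransferase, Golm1 and Ptgs1 (0.979), which encodes cyclooxygenase 1. Mertk averaged 629.7, 181, 278 and 83.5 CPM in host and donor microglia and host and donor leptomeningeal cells, and Slc2a5 552, 32.6, 96.3 and 6.87. By Spearman's rho 5 of the 10 were again in the top 10. Among the members themselves, P2ry12 followed the shared profile most closely (r = 0.993) and Cx3cr1 least (r = 0.789). Over the 8 group means, the closest non-member was Ctsf for P2ry12, Sall3 for P2ry13, Rasgrp3 for Gpr34, Tmem209 for Adora3, Trp53bp1 for Cx3cr1, Plxdc2 for Adgrg1, Syngr1 for Siglech, Epha2 for Tmem119 and Wdfy3 for Olfml3, with r from 0.983 for Cx3cr1 to 0.999 for Tmem119.

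Genes that overlap the members or lie within 50 kb of them were also read. Counted as pairs of a member and a neighbour, 24 of the 45 annotated had a row in the table. Med12l is in this count for both P2ry12 and P2ry13, which also count as each other's neighbours. Med12l, which overlaps P2ry12 and P2ry13 on the other strand, averaged 36.8 CPM in host and 4.73 in donor microglia (-2.73 ± 0.29), and Cask, which overlaps Gpr34, 33.2 CPM in host and 17.6 in donor microglia (-0.78 ± 0.18). Whether counting used strand was not stated, so reads of overlapping genes may be shared. Near Tmem119, Selplg (18020 bases away), the gene of a selectin ligand on the homeostatic list, averaged 8872 CPM in host and 944 in donor microglia (-3.06 ± 0.09), while Coro1c, Iscu and Sart3 were at 0.21 ± 0.11, -0.47 ± 0.10 and -0.51 ± 0.13. Beside Adgrg1, its relatives Adgrg3 and Adgrg5 were higher in donor microglia (2.50 ± 0.94 and 3.07 ± 0.58), from 0.810 and 0.651 CPM in host microglia, so that these folds rest on few UMIs in host cells. Hipk1 beside Olfml3 (-0.14 ± 0.12) and Tubgcp5 beside Siglech (-0.20 ± 0.15) did not pass.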

How the data were processed

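The series is 28 MARS-seq libraries of sorted brain macrophages in 8 groups. The deposited table holds, per the file headers, raw UMI counts, normalized signal and rlog (log2) values for 14617 genes; the authors' normalized signal and rlog log2 values were not used here. Counts refer to mm10, per the submitters' processing notes; the aligner, the counter and their use of strand are not given in the sources used here. From the deposited counts, CPM over the library total and log2 fold changes were computed. The main fit was edgeR 4.0.16 in R 4.3.3 (quasi-likelihood, robust, TMM scaling, filterByExpr, all 28 libraries and 8 groups in 1 model, 13 contrasts, Benjamini-Hochberg adjustment over 12327 genes, threshold 0.05). Folds are ± SE on the log2 scale, levels are mean ± SD in CPM. Cx3cr1 was not tested where a contrast crosses the GFP gate. Comparisons share libraries, so their values are not independent.

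The 9 members and the gene lists were chosen with earlier results of these data known. Named are all members, up to 4 genes of each list with the smallest adjusted p, the genes most like the members and their genomic neighbours. Some genes that this rule names are not reported here. The fits were tested on simulated counts. Depth was 479077 to 3066506 UMIs per library, and 3 UMIs bound a count of 0. Alternatives were DESeq2 1.42.0 (size factors and Wald test), voom with limma 3.58.1, no filter, a replicate block and TMM without marker genes of other cells. Others were the compared groups alone, marker covariates, a library total without neutrophil markers and leaving out libraries. A marker covariate was the mean log2 CPM of the listed markers, not their share of UMIs. The mitochondrial share as a covariate was added after seeing the data. Permutation tests used scipy 1.17.1 and were exact and two-sided; tables used pandas 2.3.3 and figures matplotlib 3.10.9. Replicate numbers were checked as pairs and treated as names only.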

Additional observations from a re-analysis of the deposited data

Results flagged for a closer look

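For 2 of the 8 members tested the donor against host difference itself differed between compartments by edgeR's quasi-likelihood test of the interaction. Both went toward a smaller difference in the leptomeninges, where 19.1% of all genes were higher in this sense and 23.2% lower. P2ry13 had a difference of 1.04 ± 0.21 (leptomeninges minus parenchyma, log2 scale, adjusted p = 0.000244), and Adora3 one of 1.43 ± 0.31 (adjusted p = 0.000183). Adora3 in donor cells rests on few UMIs, with 3 in the lowest library of donor microglia. No library of a member stood apart from its group by Dixon's test in the 54 groups of 4 libraries that were checked. With 4 libraries the critical ratio is 0.829, so only a very wide gap is found. It did not mark mutant host microglia library 4, the lowest host microglia library for P2ry12, P2ry13, Gpr34, Cx3cr1 and Siglech. Host leptomeningeal groups have too few libraries and were not checked.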

How the results depend on the processing

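Of 2536 refitted folds of the members, 52 changed their call and 89 changed sign without a call in either fit. Reversed after a call were P2ry13 in the compartment dependence of the origin effect with the astrocyte and neuron covariate (-0.20) and Gpr34 between donor compartments with the neutrophil covariate (0.064). With the astrocyte and neuron covariate the members past the threshold were 1 in donor against host microglia, 2 between donor compartments, 0 in donor microglia against host leptomeningeal cells and 0 for the origin effect. With the neutrophil covariate they were 5 in donor against host leptomeningeal cells and 2 between donor compartments, and in donor against host microglia Gpr34 lost its call. With the mitochondrial share, added after seeing the data, 0 passed for the origin effect, and Tmem119 lost its call in donor against host microglia. DESeq2's Wald test gave 4 for the origin effect, 1 for mutant against control host leptomeningeal cells and 1 for the difference of that effect between host compartments, and these groups fitted alone gave 2 for mutant against control host leptomeningeal cells. The cause was not tested.

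Leaving out 1 library at a time gave 8 members throughout for donor against host microglia, for donor against host leptomeningeal cells and between donor compartments, 7 to 8 between host compartments, 5 to 6 for donor microglia against host leptomeningeal cells, 2 to 3 for the origin effect and 0 for each genotype comparison. The replicate block, on numbers whose libraries correlated from -0.184 to 0.125 and so served only as names, changed 1 call, that of Gpr34 in donor microglia against host leptomeningeal cells (-0.82, adjusted p = 0.0660). CPM over a total without neutrophil markers left all group means of the members within their SD.

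Counts over all genes also moved. In donor microglia 11 genes passed, 4 to 124 under other fits (DESeq2 81, voom 124) and 3 to 544 without 1 library, with 544 without control library 2. In host microglia 8 passed, 0 to 15 under other fits and 0 to 11 without 1 library. In donor leptomeningeal cells 6 passed, and 11 with voom. In host leptomeningeal cells 0 passed (666 at an unadjusted p under 0.05), 25 with DESeq2, 17 with these groups alone and 1 to 5 without 1 library. For donor against host microglia 7448 passed, 683 with the astrocyte and neuron and 1549 with the mitochondrial covariate. Against 3718 in the leptomeninges, 431 passed with the neutrophil covariate. Between donor compartments 7650 passed, with 810 and 2135 under the astrocyte and neuron and the neutrophil covariates, and between host compartments 6994, with 2830 under the mitochondrial covariate. For donor microglia against host leptomeningeal cells the counts were 5650 and 815, and for the origin effect 5208, 263 and 443. Depth limits Adora3, Olfml3 and Adgrg1 in donor cells, and 2 libraries a side limit every comparison within host leptomeningeal cells.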
